A study of Rattus norvegicus with 196 samples.

Results

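Slc7a10, Slc6a11, Kcnj10 and Apoe are 4 genes known for their expression in astrocytes. Their transcripts were taken by name from a list that pairs identifiers with symbols, and are 4 of the 1844 transcripts so named and of the 29188 transcripts counted in each library. The libraries came from punches of 25 brain regions of male Long-Evans rats, 2 months old at the start. Of the 196 libraries, 98 were from rats that took fluoxetine (FT) at 18 mg/kg of body weight for 6 weeks, and 98 from control rats given water (Sham). Each library pooled tissue punches from several rats, so no value below belongs to a single animal. Libraries of a region and treatment are numbered 1, 3, 4 and 5. There were 4 in each group except FT in the medial preoptic area (mPoA) and Sham in the arcuate nucleus (Arc), where only numbers 4 and 5 exist. Pools with the same number hold tissue of the same rats in every region, so regions are not independent samples of the treatment.

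Astrocytes take up transmitters and potassium around synapses and supply neurons with lipids. Slc7a10 (transcript ENSRNOT00000015205) encodes Asc-1, an exchanger of small neutral amino acids that moves glycine and serine, including D-serine, the co-agonist of NMDA receptors. Slc6a11 (ENSRNOT00000008342) encodes GAT-3, which clears GABA into astrocytes, and Kcnj10 (ENSRNOT00000010146) encodes Kir4.1, the inwardly rectifying channel through which astrocytes buffer extracellular potassium. Apoe (ENSRNOT00000041891) encodes apolipoprotein E, the main lipid carrier that astrocytes secrete. Fluoxetine is a selective inhibitor of serotonin reuptake.

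The 250 bases before each gene's start are shown because ratios of 2 of these genes, Slc6a11 and Kcnj10, moved together over the pairs of libraries described further on. They are from RefSeq on GRCr8 and run 5′ to 3′ on the strand of the gene, and letters in capitals mark the half-site of nuclear factor I (NFI) factors, TTGGC, on either strand. The stretches lie at chr1:96965872-96966121 on the plus strand for Slc7a10, chr4:148853307-148853556 on the plus strand for Slc6a11, chr13:87334260-87334509 on the plus strand for Kcnj10 and chr1:88484700-88484949 on the minus strand for Apoe, which has 3 listed starts, of which the middle one is shown.
Slc7a10: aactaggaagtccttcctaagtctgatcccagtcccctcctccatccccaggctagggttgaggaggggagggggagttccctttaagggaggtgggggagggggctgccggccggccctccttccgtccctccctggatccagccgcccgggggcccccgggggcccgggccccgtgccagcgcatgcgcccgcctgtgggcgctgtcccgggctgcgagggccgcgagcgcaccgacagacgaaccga
Slc6a11: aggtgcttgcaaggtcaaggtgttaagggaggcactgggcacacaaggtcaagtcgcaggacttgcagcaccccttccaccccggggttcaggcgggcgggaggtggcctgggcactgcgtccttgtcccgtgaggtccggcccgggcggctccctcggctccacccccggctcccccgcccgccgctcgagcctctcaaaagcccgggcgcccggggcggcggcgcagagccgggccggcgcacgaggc
Kcnj10: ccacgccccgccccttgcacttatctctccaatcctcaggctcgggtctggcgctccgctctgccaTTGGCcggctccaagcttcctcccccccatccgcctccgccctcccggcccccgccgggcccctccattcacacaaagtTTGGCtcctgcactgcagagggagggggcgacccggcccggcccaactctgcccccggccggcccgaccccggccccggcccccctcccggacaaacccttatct
Apoe: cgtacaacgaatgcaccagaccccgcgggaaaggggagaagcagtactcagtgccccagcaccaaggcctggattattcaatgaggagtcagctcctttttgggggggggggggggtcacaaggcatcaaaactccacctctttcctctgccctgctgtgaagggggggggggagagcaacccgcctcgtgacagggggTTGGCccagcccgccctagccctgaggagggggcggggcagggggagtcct

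The NFI half-site occurred 2 times before Kcnj10, 1 time before this start of Apoe and in neither transporter's stretch, while 40.3% of 33469 promoters of the same length held it. The letters TTCNNNGAA of a STAT site, held by 7.67% of promoters, and ACAATGG of a SOX9 site on either strand, held by 3.23%, were in none of the 4 stretches. G and C made up 72.4% of the bases for Slc7a10, 73.6% for Slc6a11, 72.4% for Kcnj10 and 64.4% for Apoe, against a median of 51.2% over all promoters. These matches describe the letters in the window and are not sites of binding.

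Levels are given as CPM, the counts scaled to library size with TMM factors, and since transcript lengths were not used they compare libraries for 1 gene and never 1 gene with another. Between 4586 and 50893913 reads fell on transcripts in a library. The smallest libraries were replicate 3 of Sham in the nucleus of the solitary tract (Nts), with 4586 reads, and replicate 3 of Sham in the infralimbic cortex (ILC), with 543403 reads. Replicate 3 stood apart in every region, with a median of 68.6% of Sham reads and 67.7% of FT reads on the 50 most abundant transcripts, against medians of 28.2% to 37.5% for the other numbers. Replicate 1 of Sham ILC and replicate 1 of FT in the cingulate cortex (CGC) resembled replicate 3 in this measure, at 82.9% and 83.3%. The CGC pair of replicate 1 was left out, on the assumption that it is the pair of CGC libraries that the study's methods drop without naming, and it entered only alternatives. With it kept, log2FC of FT against Sham in CGC was 0.84 in place of 1.34 for Slc7a10, -0.41 in place of -0.88 for Slc6a11, -0.64 in place of -1.67 for Kcnj10 and 1.41 in place of 0.64 for Apoe. Of the astrocyte genes chosen for this work, 20 of 30 had a named transcript, and none of the 20 was at 0 in all libraries. The 10 without one, Aqp4, Gfap, Slc1a2, Slc1a3, Aldh1l1, Aldoc, S100b, Glul, Sox9 and Gjb6, include the most widely used markers. Reads on the other 20 do not show that they came from astrocytes, so the label was not tested.

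Apoe carried the mark of replicate 3 most plainly. Its median level over regions in Sham was 13175 CPM in replicate 3, 827 CPM in replicate 1, 254 CPM in replicate 4 and 217 CPM in replicate 5. In FT these medians were 18952 CPM, 922 CPM, 259 CPM and 325 CPM in the same order. Apoe took a median of 0.678% of all reads in Sham and 0.840% in FT in replicate 3, and 0.0329% to 0.107% elsewhere. Replicate 3 held the highest Apoe level of every group it belongs to, except in Sham ILC, where replicate 1 was higher.

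Kcnj10 was the least counted of the 4. Its median count per Sham library was 10 reads in replicate 1, 13.5 in replicate 3, 91 in replicate 4 and 105 in replicate 5, and per FT library 6, 13.5, 14 and 11 reads. The other genes were counted more deeply, and the lowest median over regions was 55.5 reads for Slc7a10, 40 reads for Slc6a11 and 3835 reads for Apoe. Slc7a10 had no read in replicate 3 of Sham ILC, where 3 reads would have been 5.52 CPM without the TMM factor. Slc7a10, Slc6a11 and Kcnj10 had none in replicate 3 of Sham Nts, where 3 reads would have been 654 CPM on that scale. Kcnj10 also had none in replicate 3 of Sham ILC and in replicate 1 of Sham in the ventral tegmental area (VTA). In the latter 3 reads are 1.47 CPM on that scale. Kcnj10 had none in replicate 5 of FT in the periaqueductal gray (PAG) either, where they are 0.340 CPM. Since these limits leave out the TMM factor, they cannot be set against the other CPM values. The factor was 0.28 in that ILC library, which raises its limit, and 2.5 in that Nts library, which lowers it. With the factor, 2 reads of Slc6a11 in that ILC library were 13.1 CPM. The limits cover counting error only.

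How the level of each gene varies over the untreated brain was asked in the 97 Sham libraries outside the left-out one, with the replicate number as a covariate in 1 edgeR fit. Both transporters differed strongly between regions. For Slc7a10 the F was 10.3 with an adjusted p of 9.86e-15, and for Slc6a11 it was 9.03 with an adjusted p of 2.84e-13. Kcnj10 passed narrowly, at an F of 1.76 and an adjusted p of 0.0470, and Apoe did not, at an F of 1.39 and an adjusted p of 0.175. Of all 16977 transcripts tested in this fit, 75.6% passed, so passing is common here and not particular to the 2 transporters.

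Slc7a10 was highest in hindbrain and midbrain regions and VMH, the ventromedial hypothalamus, and lowest in the cortex. The fitted order ran from Nts, locus coeruleus (LC), VMH, VTA, raphe and PAG down to dorsal dentate gyrus (dorDG), prelimbic cortex (PLC), ILC, CGC and insular cortex (InsularC). In Sham Nts the levels of replicates 1, 3, 4 and 5 were 66.2, 0, 58.4 and 59.1 CPM, and in Sham InsularC they were 13.7, 10.6, 10.6 and 22.2 CPM. Apart from the library with 4586 reads, every Nts pool lay above every InsularC pool. The fitted difference was 2.03 on the log2 scale (SE 0.25, edgeR adjusted p = 3.69e-10). Nts, chosen as the highest on these values, differed from 19 of the 24 other regions and not from LC, VMH, VTA, raphe or PAG. Over the comparisons of this kind for the 4 genes, 21.7% of all tests passed.

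Slc6a11 was highest in the hypothalamus and lowest in cortex, striatum and hippocampus. Its order began with Arc, VMH, lateral hypothalamus (LH), VTA, raphe and mPoA and ended with accumbens shell (NAcSh), PLC, accumbens core (NAcC), dorDG and CGC. The 2 Sham Arc pools were at 31.3 and 38.8 CPM and the 4 Sham VMH pools at 18.6, 50.4, 32.3 and 30.1 CPM. In Sham CGC replicates 3, 4 and 5 were at 9.03, 3.11 and 5.45 CPM, below all of these. Arc exceeded CGC by 2.90 on the log2 scale (SE 0.52, edgeR adjusted p = 1.02e-05). Chosen as the highest on these values, it differed from 14 of the 24 other regions, from the paraventricular nucleus (PVN, of the thalamus in the study's list of regions) downwards.

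Kcnj10 was highest in raphe, where the Sham pools held 4.69, 13.5, 12.6 and 9.34 CPM, and lowest in the centromedial amygdala (CMA), where they held 0.255, 2.50, 3.83 and 3.78 CPM. The groups did not overlap, and the fitted difference was 2.14 on the log2 scale (SE 0.59, edgeR adjusted p = 0.00333). Raphe, chosen as the highest on these values, differed from 16 of the 24 other regions. The regional difference of Kcnj10 lost its call without replicate 3 (adjusted p = 0.151), without replicate 4 (0.214), without replicate 5 (0.324) and without the replicate covariate (adjusted p = 1).

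Apoe was highest in the habenula (HB), at 975, 22682, 438 and 396 CPM, and lowest in CGC, at 5927, 191 and 160 CPM for replicates 3, 4 and 5. HB was higher in each of these 3 replicate numbers, although the ranges of the pools overlap. HB, chosen as the highest on these values, differed from 4 of the 24 other regions, dorDG, InsularC, PLC and CGC. Of all tests in comparisons of this kind 21.7% passed, so this count is no result about Apoe. Without the 2 smallest libraries Apoe passed the F test over regions (adjusted p = 0.00479), as it did without replicate 1 (0.00588) and in the FT libraries (4.71e-06).

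None of the 24 pairs of regions next to each other in these orders passed the test for Slc7a10, Slc6a11, Kcnj10 or Apoe. Sorting by a gene's own level makes these its smallest differences, so the 16.2% of all tests that passed in the same pairs, over transcripts not sorted in this way, is no measure for them. The regional profiles of Sham and FT had r = 0.67 for Slc7a10, 0.74 for Slc6a11, 0.23 for Kcnj10 and 0.26 for Apoe over 25 regions. Without the 2 smallest libraries these were 0.77, 0.86, 0.27 and 0.28. Outside Arc and mPoA, points of the Sham and FT profiles share replicate numbers, and these r values are given as a description. The profiles were not adjusted for replicate number, and Sham Arc and FT mPoA had 2 libraries against 4 in the other treatment. Mean log2 CPM of Apoe was 7.54 in Sham Arc and 10.13 in FT Arc, and 9.81 in Sham mPoA and 8.19 in FT mPoA. The r of Apoe therefore cannot tell a difference between the profiles from missing replicate numbers.

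**Figure D1:**
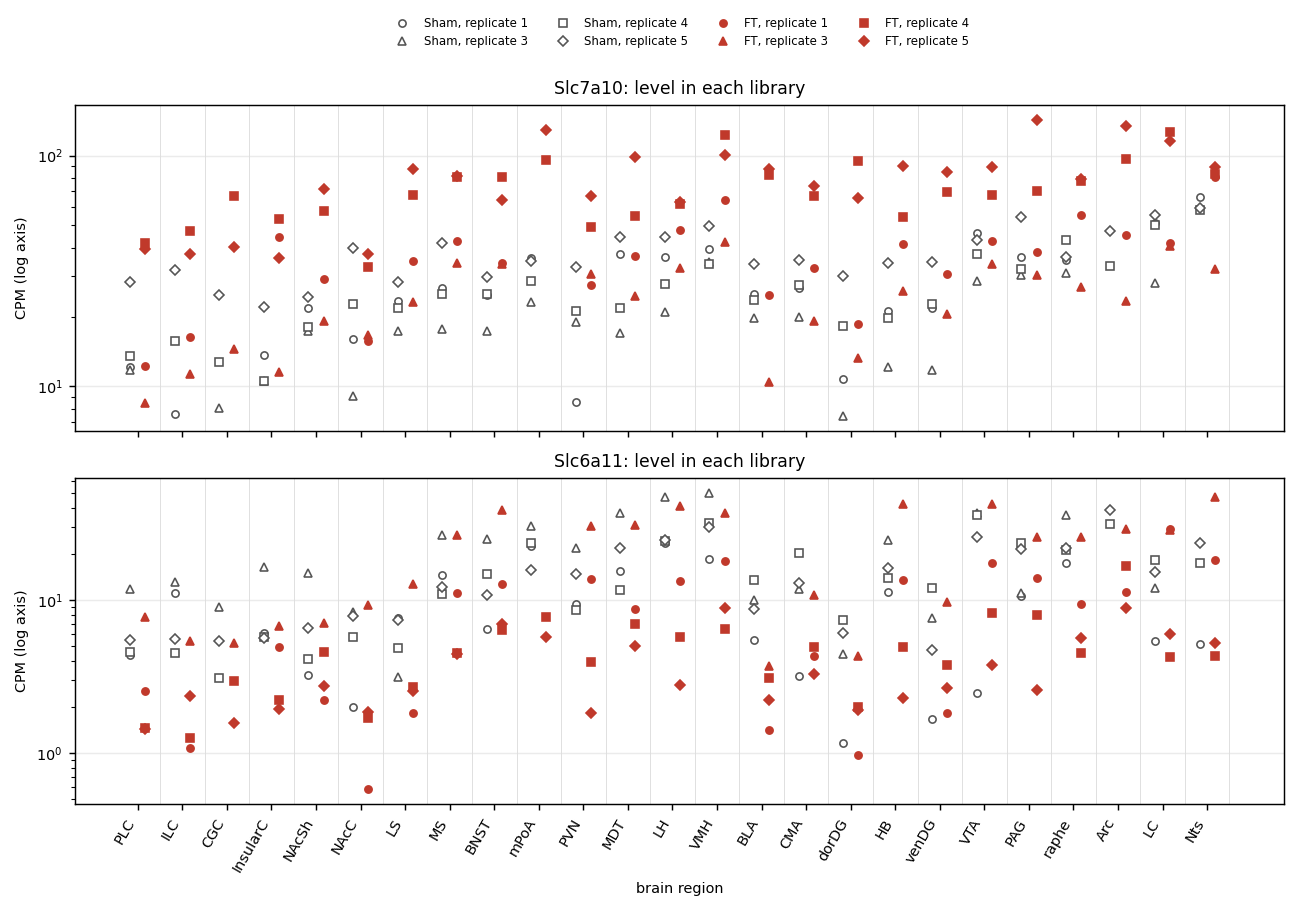
Levels of Slc7a10 and Slc6a11 in CPM on a log axis in each Sham and FT library by region, with a symbol for each replicate number; open symbols are Sham, filled ones FT, and libraries without a read and replicate 1 of CGC are not drawn. FT pools of replicate 4 lie above their Sham partners in 25 of 25 regions for Slc7a10 and below them in 24 of 25 for Slc6a11.

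Genes with a regional profile like that of a member were sought among the 1843 other named transcripts, by Pearson's r of mean Sham log2 CPM over the 25 regions. These means were not adjusted for replicate number either. In Sham Arc, with replicates 4 and 5 only, mean Apoe was 7.54, and the next lowest was 9.04 in Nts. For Apoe, likeness over regions and a shared difference between replicate numbers therefore cannot be told apart. For Slc6a11 the nearest were APEG3 (r = 0.91), Gpr165 (0.88), Adcy7 (0.87), Vat1 (0.87) and Etnppl (0.86), the last an enzyme of ethanolamine phosphate breakdown found in astrocytes, and 4 of the 5 stayed among the nearest without the 2 smallest libraries. For Kcnj10 they were Elovl5 (0.81), Peli2 (0.75), Zfp664 (0.74), Dusp10 (0.73) and Idh1 (0.71), of which 2 stayed, and for Apoe H2afj (0.88), Rpl13 (0.88), Cox8a (0.85), Chchd10 (0.84) and Atp5i (0.82), of which 3 stayed. For Slc7a10 the nearest were Tnfsf12 (0.90), Afmid (0.89), Cuedc1 (0.87), Smim17 (0.85) and Hdhd3 (0.85), and none of these stayed. Without the 2 smallest libraries its nearest were Phlda3 (0.92), Esyt1 (0.89), Rnd2 (0.87), Glra1 (0.87) and Arhgap36 (0.86). Among the members themselves, Slc7a10 and Slc6a11 were the most alike, at r = 0.66, and at 0.71 without those libraries.

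The effect of FT was then asked in each region alone, with FT and Sham pools of 1 number taken as a pair. A call needed an absolute log2FC of at least 0.32 and an adjusted p of at most 0.1 within the region. Since the named list holds transcripts that the study had called on these same samples, the direction of the members under FT is not independent evidence. In bulk tissue, fewer cells of a type and less RNA per cell cannot be told apart.

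Slc7a10 was higher in FT, and Slc6a11 and Kcnj10 were lower, in nearly every region, while Apoe was moderately higher. The median log2FC over the 25 regions was 1.00 for Slc7a10, positive in 25 of 25 and between 0.30 in NAcC and 1.81 in mPoA. For Slc6a11 it was -1.01, positive in 1 of 25 and between -2.02 in ILC and 0.03 in LC. Kcnj10 had the lowest median, -1.76, positive in 0 of 25 and between -3.13 in ILC and -0.19 in LC. For Apoe the median was 0.40, between -0.31 in the dorsomedial thalamus (MDT) and 0.84 in PVN. Among the 11365 transcripts tested in all 25 regions, these medians stood at percentiles 99.5, 0.6, 0.1 and 89.4. Of these transcripts, 4.1% were positive in 25 of 25 regions, 5.6% in at most 1 and 2.9% in 0. Few of these values passed the correction by edgeR. An unadjusted p under 0.05 was reached in 20 regions by Slc7a10, in 14 by Slc6a11, in 20 by Kcnj10 and in 4 by Apoe, against calls in 2, 3, 3 and 0. Over all transcripts and regions 14% of tests reached it, so the 4 of 25 of Apoe lie near that share.

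**Figure D2:**
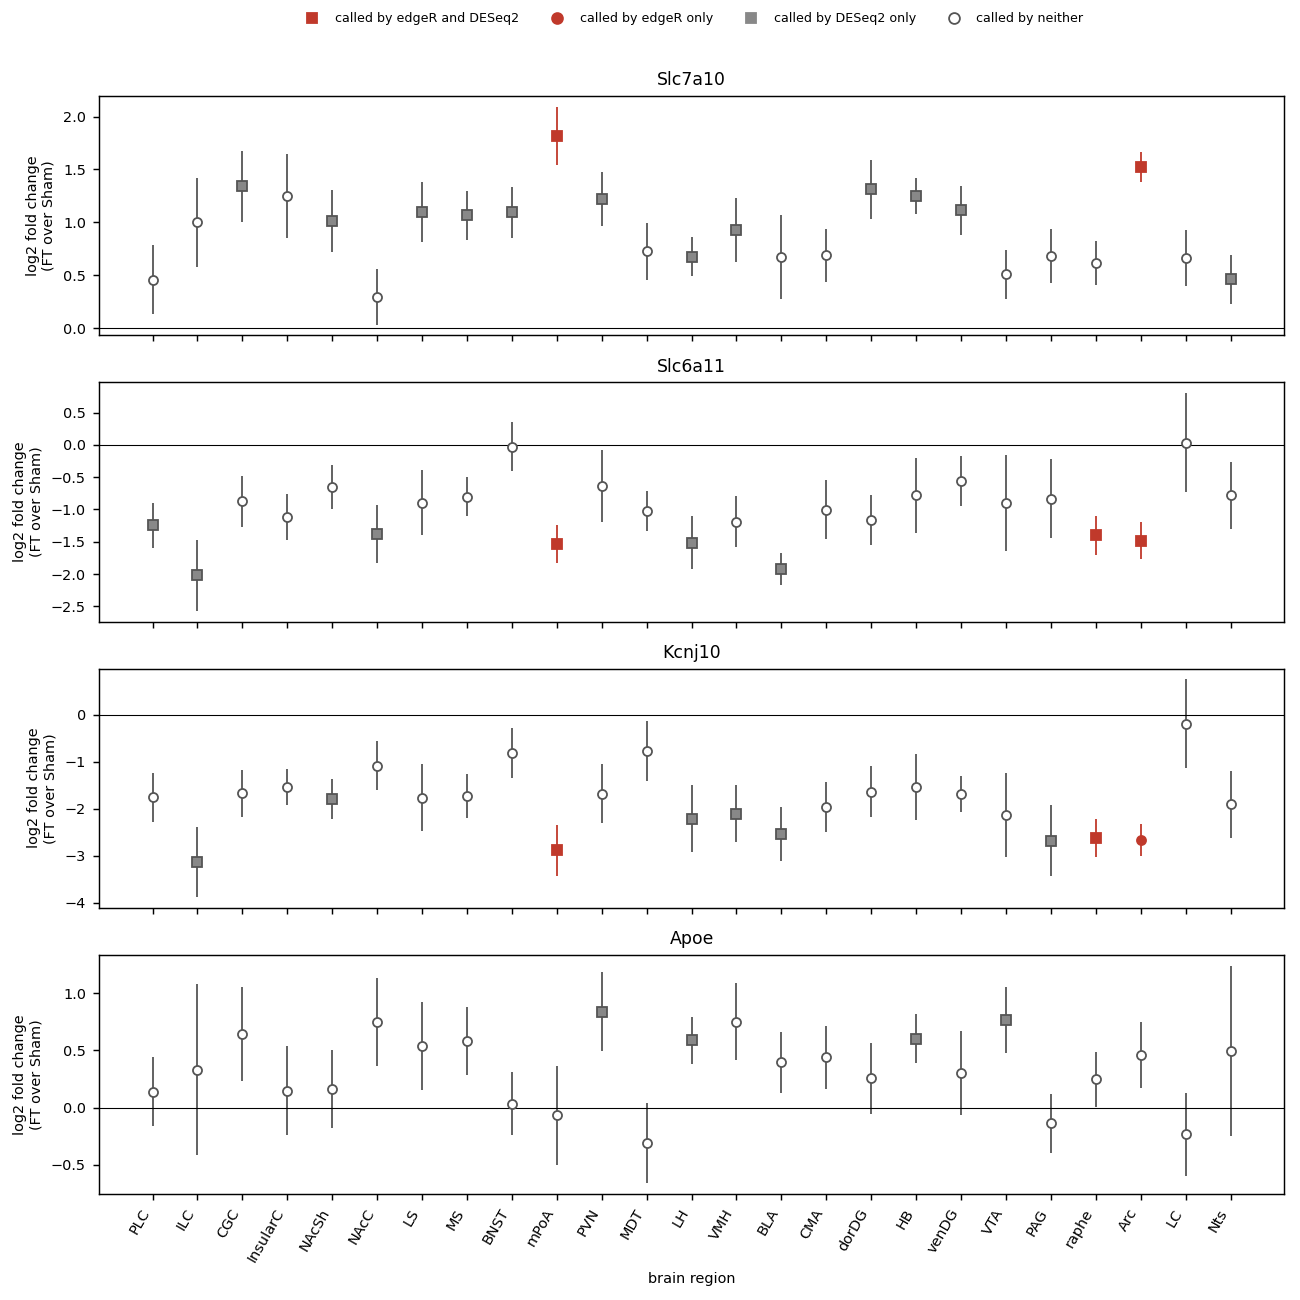
Log2FC of FT against Sham from edgeR for each member and region, with bars of 1 SE. Red symbols mark calls by edgeR and grey ones calls by DESeq2 alone. Slc7a10 lies above 0 in 25 of 25 regions and Kcnj10 below 0 in 25 of 25.

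By edgeR, Slc7a10 rose in mPoA and Arc. In mPoA the FT pools of replicates 4 and 5 were at 95.7 and 129 CPM, against 35.9, 23.2, 28.7 and 34.8 CPM in Sham. Both FT pools exceeded all Sham pools, and log2FC was 1.81 (SE 0.28, edgeR adjusted p = 3.18e-06). In Arc the Sham pools of replicates 4 and 5 were at 33.2 and 47.3 CPM and their FT partners at 96.5 and 135 CPM, with log2FC of 1.52 (SE 0.14, edgeR adjusted p = 0.0128). FT pools 1 and 3 of Arc, at 45.5 and 23.5 CPM, lay in or below the Sham range but have no Sham partner. The FT effect in both regions thus rests on pairs 4 and 5. For each member, the SE and p there rest on how these pairs differ and on the spread of other transcripts. Of all transcripts tested, 4.85% in mPoA and 13.7% in Arc were called higher, and 1.01% over all regions, so a call in Arc was common.

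DESeq2 with the same block called Slc7a10 higher in 14 regions, where it called 1.19% of all tests higher. Beside Arc and mPoA these were the bed nucleus of the stria terminalis (BNST), CGC, dorDG, HB, LH, the lateral and medial septum (LS, MS), NAcSh, Nts, PVN, the ventral dentate gyrus (venDG) and VMH. In HB the Sham pools were at 21.2, 12.2, 19.8 and 34.4 CPM and the FT pools at 41.6, 25.9, 54.5 and 90.7 CPM. FT was higher in 4 of 4 pairs, with log2FC of 1.28 (SE 0.22) and an adjusted p of 2.85e-05 by DESeq2, and an adjusted p of 0.419 by edgeR. In venDG FT was also higher in 4 of 4 pairs, at 30.7, 20.7, 69.7 and 84.8 CPM against 21.8, 11.7, 22.7 and 34.8 CPM, with log2FC of 1.11 (SE 0.23) and adjusted p of 0.275 by edgeR and 0.00645 by DESeq2. In the other 10 of these regions the edgeR log2FC lay between 0.46 in Nts, where it was 0.43 without replicate 3, and 1.34 in CGC, where it was 0.84 with the replicate 1 pair kept. NAcC was the region of the smallest change, with FT at 15.8, 16.6, 32.8 and 37.4 CPM and Sham at 16.0, 9.11, 22.8 and 39.7 CPM. There the groups overlapped and log2FC was 0.30 (SE 0.26, edgeR adjusted p = 0.562).

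Slc6a11 fell in mPoA, Arc and raphe by edgeR. The FT pools of mPoA were at 7.77 and 5.75 CPM, below the Sham pools at 22.5, 30.7, 23.7 and 15.8 CPM, and log2FC was -1.54 (SE 0.29, edgeR adjusted p = 0.000177). In Arc Sham pools 4 and 5 were at 31.3 and 38.8 CPM and their FT partners at 16.8 and 8.94 CPM, with log2FC of -1.48 (SE 0.29, edgeR adjusted p = 0.0312). The unpaired FT pools 1 and 3 of Arc, at 11.3 and 29.5 CPM, were also under the Sham values. In raphe Sham held 17.6, 36.1, 21.5 and 22.1 CPM and FT held 9.40, 26.1, 4.55 and 5.64 CPM, so FT was lower in 4 of 4 pairs although replicate 3 of FT lay within the Sham range. Log2FC there was -1.40 (SE 0.30, edgeR adjusted p = 0.0581), and the call was lost without replicate 1 (adjusted p = 0.103), replicate 4 (0.231) or replicate 5 (0.139). Transcripts called lower made up 4.74% of those tested in mPoA, 10.8% in Arc, 3.51% in raphe and 0.913% over all regions.

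DESeq2 called Slc6a11 lower in 8 regions, against 0.803% of all tests, and gave no adjusted p in 5. The 8 were Arc, mPoA, raphe, the basolateral amygdala (BLA), ILC, LH, NAcC and PLC. In BLA Sham was at 5.48, 10.1, 13.6 and 8.78 CPM and FT at 1.42, 3.70, 3.11 and 2.23 CPM, with no overlap. Log2FC was -1.92 (SE 0.25), with an adjusted p of 0.234 by edgeR and 9.48e-06 by DESeq2. ILC had the lowest log2FC, with Sham at 11.1, 13.1, 4.55 and 5.57 CPM and FT at 1.08, 5.44, 1.27 and 2.36 CPM. The 13.1 CPM of replicate 3 rests on 2 reads. The log2FC of ILC, -2.02 (SE 0.55), was -2.13 without replicate 3, and -1.46 without replicate 1, the pair whose Sham library stood apart. By DESeq2 log2FC was -1.53 in LH (adjusted p = 0.00942), -1.39 in NAcC (0.0665) and -1.27 in PLC (0.0985). In LC replicates disagreed, with FT at 29.3, 28.8, 4.23 and 6.00 CPM against Sham at 5.46, 12.1, 18.3 and 15.3 CPM. There FT was higher in pairs 1 and 3 and lower in pairs 4 and 5, and log2FC was 0.03 (SE 0.77, edgeR adjusted p = 0.990).

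**Figure D3:**
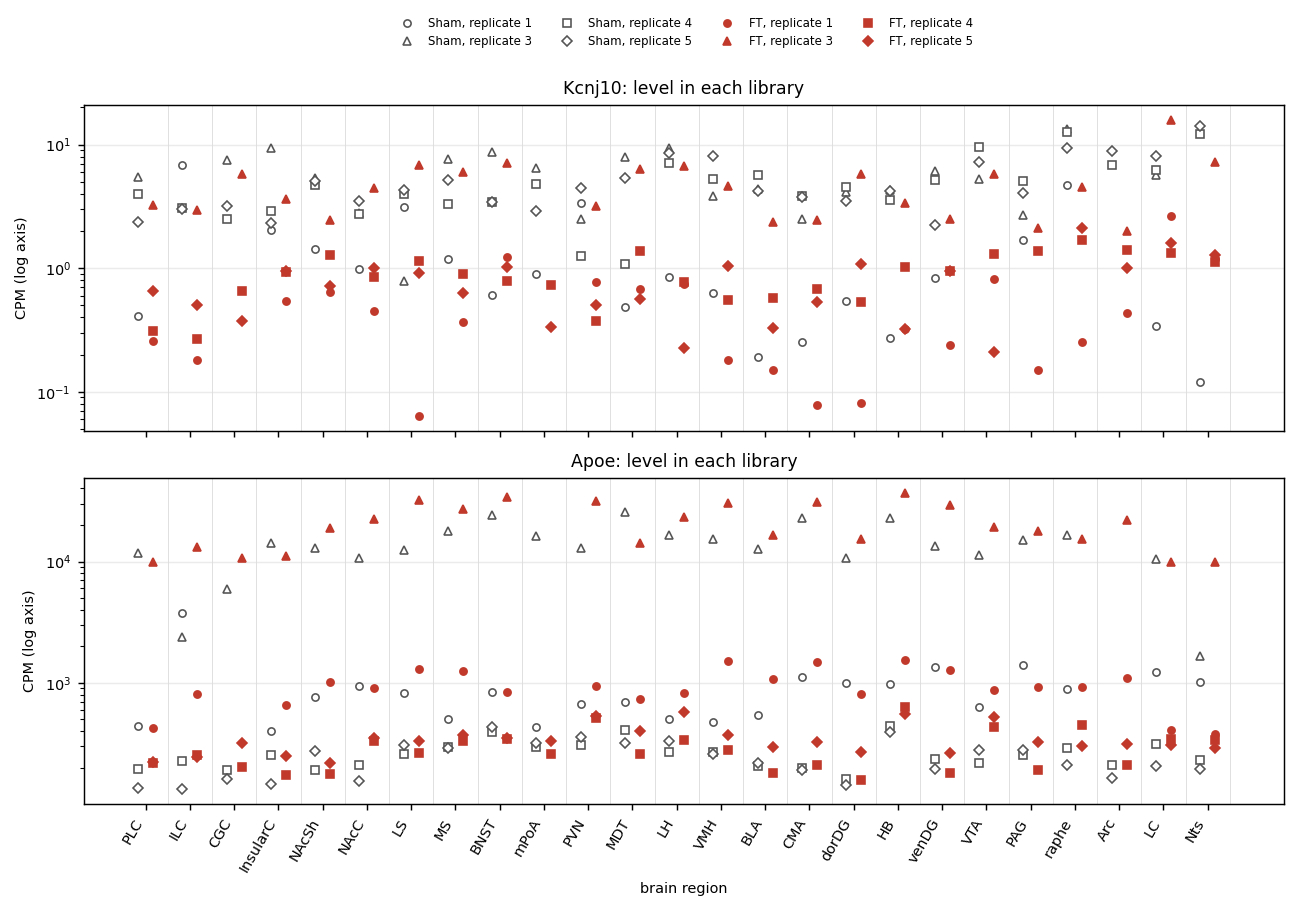
Levels of Kcnj10 and Apoe in CPM on a log axis in each Sham and FT library by region, drawn in the same way. Apoe in replicate 3 is at 1658 CPM or more in each library, and Kcnj10 in FT replicates 4 and 5 is at 2.13 CPM or less.

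Kcnj10 fell in the same 3 regions by edgeR. In raphe the FT pools were at 0.252, 4.51, 1.68 and 2.13 CPM and the Sham pools at 4.69, 13.5, 12.6 and 9.34 CPM, with no overlap and log2FC of -2.62 (SE 0.40, edgeR adjusted p = 0.0426). Without replicate 4 the adjusted p was 0.194. In mPoA FT was at 0.735 and 0.334 CPM and Sham at 0.893, 6.47, 4.78 and 2.92 CPM, with log2FC of -2.88 (SE 0.54, edgeR adjusted p = 0.000134). Arc Sham pools 4 and 5 held 6.87 and 8.81 CPM and their FT partners 1.41 and 1.01 CPM, with log2FC of -2.66 (SE 0.34, edgeR adjusted p = 0.0159). The unpaired FT pools of Arc, at 0.436 and 1.99 CPM, were under the Sham values too.

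DESeq2 called Kcnj10 lower in 8 regions, BLA, ILC, LH, mPoA, NAcSh, PAG, raphe and VMH, and gave no adjusted p in 12, Arc among them, where its log2FC was -2.70 (SE 0.69). The value of ILC was the lowest, with Sham at 6.87, 0, 3.07 and 2.98 CPM and FT at 0.180, 2.93, 0.266 and 0.506 CPM. In replicate 3 of ILC the Sham library of 543403 reads held no read of Kcnj10, so this pair gives no direction. Log2FC was -3.13 (SE 0.75, edgeR adjusted p = 0.343), and without replicate 1 it was -2.52 with an adjusted p of 0.0168. In BLA, LH, NAcSh, PAG and VMH log2FC by edgeR lay between -2.68 in PAG, where the FT pool of replicate 5 had no read, and -1.79 in NAcSh. In LC, the region of the smallest change, FT was at 2.65, 15.8, 1.32 and 1.61 CPM and Sham at 0.337, 5.69, 6.20 and 8.01 CPM. As for Slc6a11, FT was higher in pairs 1 and 3 and lower in pairs 4 and 5 there, with log2FC of -0.19 (SE 0.94, edgeR adjusted p = 0.950).

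Apoe was called in no region by edgeR, with 4 regions at an unadjusted p under 0.05 where 14% of all tests reached it, and called higher in HB, LH, PVN and VTA by DESeq2. In LH Sham was at 506, 16467, 269 and 331 CPM and FT at 827, 23229, 339 and 578 CPM, higher in 4 of 4 pairs. Log2FC was 0.59 (SE 0.21), with an adjusted p of 0.211 by edgeR and 0.0280 by DESeq2, and it was 0.61 without replicate 3. In PVN FT was at 936, 31405, 515 and 534 CPM against 664, 12909, 307 and 359 CPM, again higher in 4 of 4 pairs. Its log2FC of 0.84 (SE 0.35) was 0.59 without replicate 3, with adjusted p of 0.303 by edgeR and 0.0687 by DESeq2 in all pairs. In VTA log2FC was 0.77 (SE 0.29) with all pairs and 0.77 without replicate 3, and in HB it was 0.60 (SE 0.22) and 0.57. MDT had the lowest value, with FT at 741, 14090, 259 and 399 CPM and Sham at 694, 25715, 408 and 321 CPM. FT was lower there in pairs 3 and 4 and higher in pairs 1 and 5, and log2FC was -0.31 (SE 0.35, edgeR adjusted p = 0.852).

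The size of the change depended on the replicate pair. The log2 ratio of FT to Sham of each pair (CPM with a prior count of 2) was taken in all complete pairs outside replicate 1 of CGC and replicate 3 of Nts and ILC. For Slc7a10 the median ratio was 0.44 in pairs 1, 0.52 in pairs 3, 1.58 in pairs 4 and 1.06 in pairs 5, with FT higher in 17 of 22, 16 of 21, 25 of 25 and 24 of 25 regions. Slc6a11 had medians of -0.26, -0.05, -1.59 and -1.84, with FT lower in 13 of 22, 12 of 21, 24 of 25 and 25 of 25 regions. For Kcnj10 the medians were -0.96, -0.33, -2.18 and -2.68, with FT lower in 16 of 22, 14 of 21, 24 of 25 and 25 of 25 regions. Lower values of Slc6a11 and Kcnj10 were thus found in nearly all regions in pairs 4 and 5, while pairs 1 and 3 were mixed. Apoe showed another order, with medians of 0.25, 0.53, 0.08 and 0.57 and FT higher in 14 of 22, 16 of 21, 15 of 25 and 23 of 25 regions.

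Averaged over the 22 regions with 4 pairs, the log2 ratio of Slc7a10 was 0.97 ± 0.38 (SD, n = 4 replicate numbers), and it was positive in 4 of 4 numbers (exact sign-flip permutation test, two-sided p = 0.13, the smallest that 4 numbers allow). For Slc6a11 it was -0.81 ± 1.08, negative in 3 of 4 numbers, with replicate 3 at 0.37 (exact permutation p = 0.375). Kcnj10 gave -1.33 ± 1.35, negative in 3 of 4 numbers, with replicate 3 at 0.34 (exact permutation p = 0.25). Without replicate 3 of Nts and ILC, replicate 3 stood at 0.05 for Slc6a11, at -0.14 for Kcnj10 and at 0.37 in place of 0.98 for Slc7a10, which had no read in the Sham library of either pair. The mean of Slc7a10 was then 0.82. Apoe gave 0.35 ± 0.28, positive in 4 of 4 numbers (exact permutation p = 0.13). With the replicate number as the unit, no member could pass a threshold of 0.05.

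**Figure D4:**
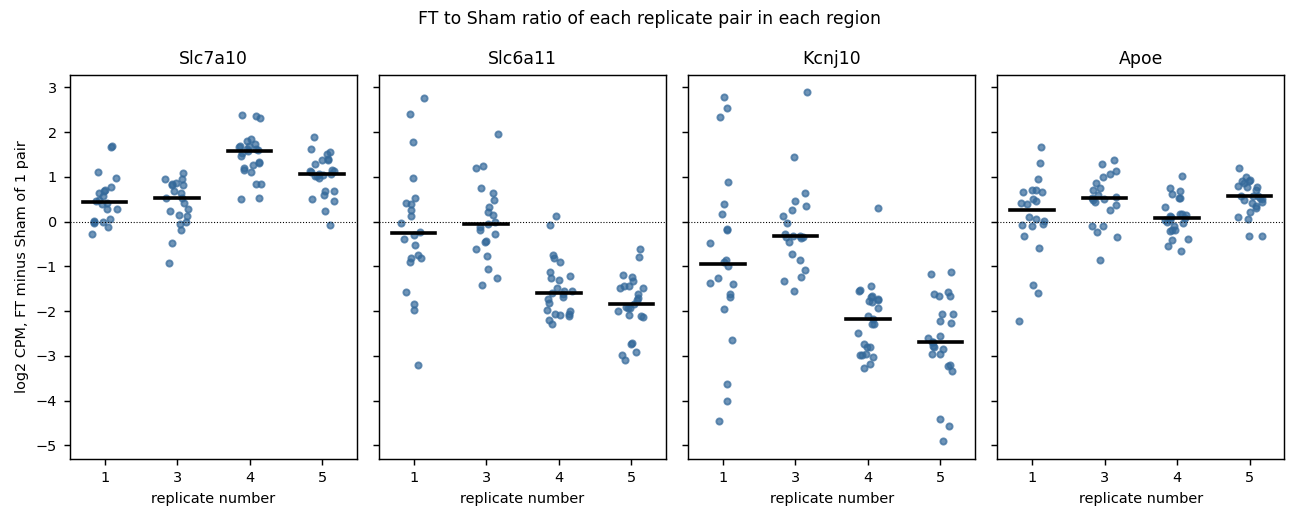
Log2 ratio of FT to Sham CPM in each region for the pairs of replicates 1, 3, 4 and 5, by member, with a line at the median and 1 point for each region. Pairs 4 and 5 of Slc6a11 lie below 0 in 24 of 25 and 25 of 25 regions, and pairs 1 and 3 lie on both sides of 0.

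Within a pair, Slc6a11 and Kcnj10 moved together. Over 93 pairs their ratios had r = 0.84 and the same direction in 80. Slc7a10 had the opposite direction to Slc6a11 in 69 of 93 pairs (r = -0.33) and to Kcnj10 in 74 of 93 (r = -0.45). Slc7a10 was higher and both others lower in 63 of 93 pairs, which were 10 of 22 in replicate 1, 6 of 21 in replicate 3, 23 of 25 in replicate 4 and 24 of 25 in replicate 5. Ratios of Apoe had r between -0.10 and -0.01 with those of the others, the same direction as Slc7a10 in 65 of 93 pairs, and the opposite one to Slc6a11 in 61 and to Kcnj10 in 62. Since most ratios of a gene lay on 1 side of 0, such counts of directions arise also where the sizes of the ratios do not go together, as for Apoe. All ratios of a pair come from the same libraries and regions share rats, so these values describe the libraries and carry no p.

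Whether the FT effect of a member differed between regions was tested in 1 joint edgeR fit of 190 libraries with every replicate pair of every region as a block of its own. The adjusted p was 1 for each member, and the unadjusted p was 0.414 for Slc7a10, 0.957 for Slc6a11, 0.884 for Kcnj10 and 0.773 for Apoe. Only 1 of 17287 transcripts, or 0.00578%, passed. The calls in Arc, mPoA and raphe were therefore not shown to differ from the values of other regions. With transcripts of low counts kept in the fit, Slc6a11 (adjusted p = 0.0172) and Kcnj10 (0.0115) passed, and Slc7a10 (0.414) and Apoe (1) did not.

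Astrocyte genes as a group did not follow a single direction. The list held 20 named genes and 499 tests over regions, of which edgeR called 4 higher and 19 lower, with a median log2FC of 0.04 and a positive median in 10 of 20 genes. For all transcripts 1.01% of tests were called higher and 0.913% lower by edgeR, and here it was 0.802% and 3.81%. DESeq2 called 33 higher and 29 lower among the same genes, and 1.19% and 0.803% of all its tests. The balance of calls thus depended on the method. Among those called lower in most regions were Slc38a3, a glutamine transporter, in 3 regions (median log2FC -0.39), Enho in 3 (-0.46) and Paqr6 in 3 (-0.60). Etnppl was called higher in 2 regions (median log2FC 0.41). Gja1, the connexin of astrocyte gap junctions, was called lower in 1 region (-0.33), and Grin2c and Mt1a in none by edgeR, with medians of 0.59 and 0.41. The list and those that follow were chosen on genes the study had called on these samples, so their calls do not bear on how the brain's astrocytes responded as a whole.

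Around Slc7a10, the list of serine and glycine genes (7 genes, 164 tests) held 3 calls higher and 5 lower by edgeR. These were 1.83% and 3.05%, against 1.01% and 0.913% of all tests. DESeq2 called 15 higher and 6 lower in this list, and 1.19% and 0.803% of all its tests. Psat1, an enzyme of serine synthesis, was called lower in 3 regions (median log2FC -0.53), Slc38a5, a glutamine and glycine transporter, higher in 2 (0.61), Glra1, a glycine receptor subunit, lower in 2 (-0.20) and Gcat, an enzyme of threonine breakdown to glycine, higher in 1 (0.77). Members of this list thus moved both ways.

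Of 158 tests over 7 GABA genes other than Slc6a11, edgeR called 1 higher (0.633%, against 1.01% of all tests) and 10 lower (6.33%, against 0.913%), and the median log2FC was -0.55. Gabrb2, a subunit of the GABA-A receptor, was called lower in 3 regions (median -1.41, negative in 25 of 25), Gabrg1, another subunit, in 2 (-0.78) and Gad2, a GABA-synthesizing enzyme of neurons, in 2 (-0.45). The single call higher by edgeR was Gabra6, which was tested in 8 regions. DESeq2 called 4 higher and 28 lower in this list, and 1.19% and 0.803% of all its tests.

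Potassium channel and sodium pump genes held 3 calls higher and 14 lower by edgeR among 247 tests over 10 genes, with a median of -0.42. These were 1.21% and 5.67%, against 1.01% and 0.913% of all tests. DESeq2 called 10 higher and 30 lower in this list, and 1.19% and 0.803% of all its tests. Kcna2, a voltage-gated channel of axons, was called lower in 4 regions (median log2FC -1.42), Fxyd6, a regulator of the sodium pump, in 3 (-1.07) and Kcnk9, a leak channel, in 2 (-1.58). Each of these was negative in every region tested. Kcng4, a modifier subunit of voltage-gated channels, was called higher in 3 (0.63).

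In the lipoprotein and cholesterol list, 11 genes beside Apoe gave 275 tests with 4 calls higher and 13 lower by edgeR, and a median of -0.22. These were 1.45% and 4.73%, against 1.01% and 0.913% of all tests. DESeq2 called 14 higher and 22 lower in this list, and 1.19% and 0.803% of all its tests. Apoc1, the neighbour of Apoe in the apolipoprotein cluster, was called higher in 2 regions (median log2FC 0.49), and Pltp, which transfers phospholipids, in 1 (0.60). Abca2, a lipid transporter of oligodendrocytes, was called lower in 3 (-0.09), and Soat1, which esterifies cholesterol, in 1 (-0.75).

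**Figure D5:**
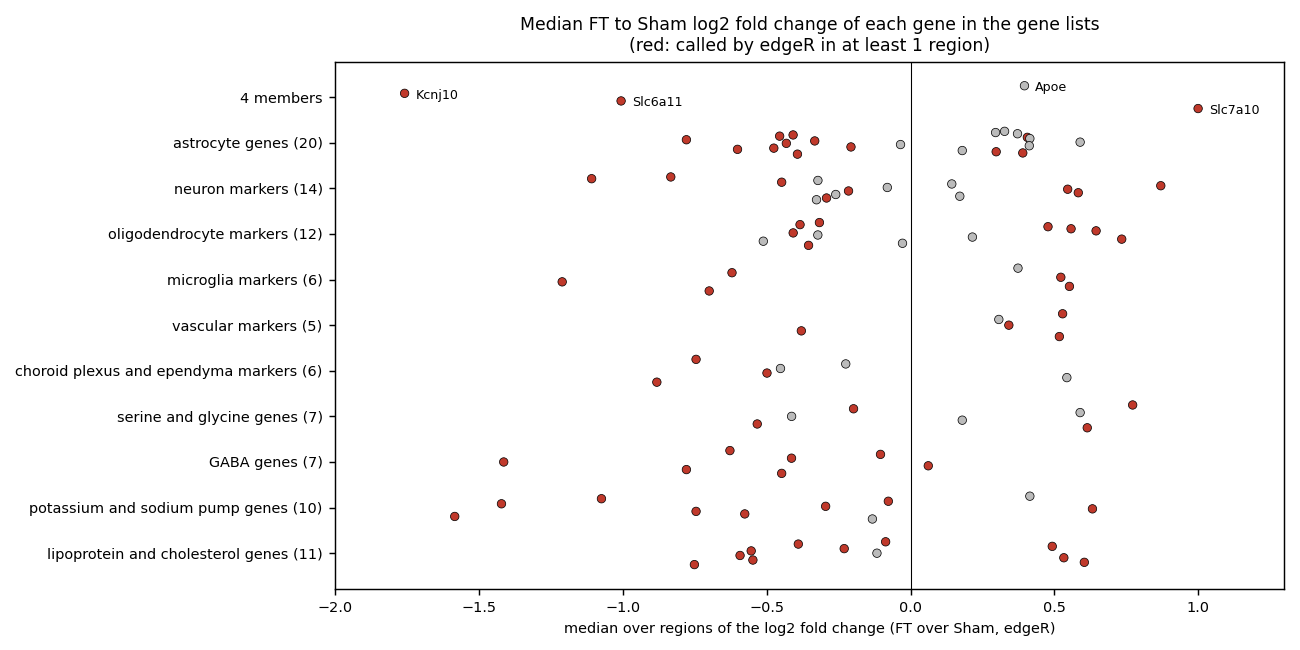
Median log2FC over regions of each gene in the gene lists, by list, with the 4 members set apart and genes called in at least 1 region by edgeR in red. Kcnj10 at -1.76 is the lowest of the members and Slc7a10 at 1.00 the highest, and each list has genes on both sides of 0.

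Summed markers of other cell types also differed between FT and Sham within pairs, some in pairs 4 and 5 and some in pairs 1 and 3. The summed CPM of 6 microglia markers was higher in FT in 25 of 25 regions in pairs 4 (median log2 ratio 0.42, range 0.07 to 1.21) and in pairs 5 (0.80, 0.22 to 1.53). For 5 vascular markers it was higher in 25 of 25 regions in both, with medians of 0.40 and 0.49. In pairs 1 and 3 the medians were 0.18 and 0.21 for microglia and 0.01 and 0.17 for vascular markers. The summed level of 20 astrocyte genes was lower in FT in 25 of 25 regions in pairs 4 (median -0.49) and in 23 of 25 in pairs 5 (-0.11), and had medians of 0.23 and 0.52 in pairs 1 and 3. In raphe the astrocyte sum stood at 0.21, 0.35, -0.17 and -0.50 in pairs 1, 3, 4 and 5, where Kcnj10 was lower in each pair. Sums of 14 neuron markers were higher in FT in 18 of 22 regions in pairs 1 (median 0.37) and in 19 of 21 in pairs 3 (0.45), and had medians of -0.09 and -0.05 in pairs 4 and 5. Those of 12 oligodendrocyte markers had medians of 0.01, -0.10, -0.34 and -0.03 in pairs 1, 3, 4 and 5. For 6 choroid plexus and ependyma markers the medians were -0.03, 0.04, -0.69 and -0.44, with single regions between -7.76 and 4.31. In raphe, where Slc6a11 and Kcnj10 were called lower, their sum stood at 0.05, 0.11, -2.72 and -3.88 in the same order. The part of these shifts in the values of the members was not tested.

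Single marker genes did not all follow their sum. By edgeR 5 of 149 tests of microglia genes were called higher and 5 lower (3.36% each), with Mpeg1 and Selplg lower in 2 regions each. Of 125 vascular tests 4 were called higher (3.20%) and 1 lower (0.800%). Of 350 neuron tests 3 were called higher (0.857%) and 9 lower (2.57%), and of 300 oligodendrocyte tests 6 higher (2.00%) and 4 lower (1.33%). The 125 choroid plexus and ependyma tests held 1 call higher (0.800%) and 3 lower (2.40%). Over all transcripts these shares were 1.01% and 0.913%, and several of the lists lie near them. DESeq2 called 9 higher and 6 lower for microglia, 8 and 2 for vascular and 34 and 35 for neuron genes. It called 22 and 24 for oligodendrocyte and 6 and 12 for choroid plexus and ependyma genes, and 1.19% and 0.803% of all its tests. None of these marker genes was at 0 in all libraries.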

How the data were processed

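RNA was sequenced with a kit for stranded total RNA as paired reads. The authors aligned the reads with STAR to rn5, counted them on Ensembl transcripts with HTSeq, and deposited raw counts per transcript for each library, without normalization. Versions of these tools are not given in the sources used here. Reads shared between transcripts were not counted on either, which lowers genes with overlapping models. No sequence of the files' own build was used.

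Samples were grouped by region and treatment from the labels. The dorCA1 and venCA1 regions, and markers with no name in the list (10 of 30 for astrocytes), were not analysed here. FT and Sham pools of a replicate number were processed in parallel, per the methods, so the number was the block. As a check, deviations of the 95 pairs from their group means had a median r of 0.59 (-0.09 to 0.83), over 0.1 in 92 pairs. The methods drop 2 CGC samples as outliers without naming them. The replicate 1 pair was assumed to be these and left out. No 2 libraries held identical counts.

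Each region was fitted over all transcripts with edgeR 4.0.16 in R 4.3.3 (TMM, filterByExpr, quasi-likelihood test, Benjamini-Hochberg adjustment). SE is the absolute log2FC over the square root of F. Regional levels and differences between regions came from joint fits, and the latter used a common dispersion estimated from 500 transcripts. CPM used TMM factors, and log2 ratios a prior count of 2. DESeq2 1.42.0, median-ratio size factors, no filter, no block, an adjusted p of 0.05, left-out replicates, all 8 CGC samples, FT in place of Sham libraries for the levels, a prior count of 0.5, all complete pairs and medians over regions were alternatives. Leaving out replicate 3 of Nts and ILC was chosen after seeing the data. The edgeR and DESeq2 fits with the replicate number in the model were also run on simulated counts. These had a fixed dispersion, and transcripts with low counts were left out of them. The permutation test and the fits without the block were not run on simulated counts. Python 3.11.15 with numpy 2.4.6, pandas 2.3.3 and scipy 1.17.1 computed ratios and permutation tests, and matplotlib 3.10.9 drew the figures. Pools are the replicates, so p-values measure the spread between pools.

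The members and gene lists were chosen with earlier results of these data known. Values or their range are given for the members in regions called by edgeR or DESeq2 and at the highest and lowest log2FC, for the 5 nearest regional profiles, and for the genes of each list called in the most regions, except 1 that is not reported here. The other genes of a list that are named were picked after their values were seen.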

Additional observations from a re-analysis of the deposited data

Results flagged for a closer look

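In each region and treatment with 4 libraries the highest or lowest level was compared with the rest, by its gap to the nearest library over the range of the group on the log2 scale. Of 184 groups, 22 had a library past Dixon's critical value for 4 values, where chance marks about 1 in 20.

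Apoe was far higher in replicate 3 in 7 groups. These were LC FT at 9921 CPM (the others 310 to 405), Nts FT at 9929 (291 to 379), PVN FT at 31405 (515 to 936), LH Sham at 16467 (269 to 506), MS Sham at 17862 (289 to 506), VMH Sham at 15306 (261 to 478) and mPoA Sham at 16259 (297 to 428).

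Kcnj10 was far lower in replicate 1 of Sham in 7 regions. The levels were 0.191 CPM in BLA (the others 4.18 to 5.66), 0.272 in HB (3.58 to 4.27), 0.337 in LC (5.69 to 8.01), 0.847 in LH (7.08 to 9.30), 1.43 in NAcSh (4.66 to 5.35), 0.543 in dorDG (3.47 to 4.52) and 0 in VTA (5.30 to 9.52). In replicate 3 of FT Nts it was high, at 7.21 CPM from 13 reads (1.12 to 1.28).

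Slc6a11 was high in replicate 3 of Sham in InsularC, at 16.6 CPM (5.69 to 6.08), and in LH, at 47.3 CPM (23.8 to 24.8), and low in replicate 1 of Sham VTA, at 2.47 CPM (25.8 to 37.1). Slc7a10 was low in replicate 3 of Sham LC, at 28.1 CPM (50.02 to 55.2), of FT Nts, at 32.2 CPM (81.1 to 89.4), and of Sham Nts, at 0 CPM (58.4 to 66.2) in a library of 4586 reads. In PLC replicate 5 of Sham was high, at 28.3 CPM (11.8 to 13.6). Of the 22 marks, which fall on 18 libraries, 13 were in replicate 3 and 8 in replicate 1.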

How the results depend on the processing

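The 35 values of a member in a region called by edgeR or DESeq2 kept their direction in all 303 comparisons with other settings, while the number of calls moved. For the stricter adjusted p the direction was fixed in advance, since its log2FC is that of the main fit. The other settings use the same or overlapping libraries, and the values were chosen as called, so a kept direction is not independent evidence. For Slc7a10 higher, Slc6a11 lower, Kcnj10 lower and Apoe higher, in this order, edgeR called 2, 3, 3 and 0 regions, DESeq2 14, 8, 8 and 4, edgeR without the low-count filter 14, 12, 18 and 0, and edgeR without the replicate block 0, 0, 0 and 0, where it called 1 of 334878 tests higher and 0 lower. With a replicate number left out the calls ranged from 0 to 5, from 0 to 4, from 0 to 6 and stayed at 0, and were fewest without replicate 4 or 5, when Arc and mPoA had 1 pair left and could not be fitted. In Sham, the regional difference of Kcnj10 lost its call without the block (adjusted p = 1) and over left-out replicates gave adjusted p from 4.04e-05 to 0.324, and that of Apoe from 0.00588 to 0.648. Apoe passed in FT libraries (4.71e-06) and without replicate 3 of Nts and ILC in Sham (0.00479). The difference of the FT effect between regions passed for Slc6a11 (0.0172) and Kcnj10 (0.0115) without the low-count filter, where 1812 of 27144 transcripts passed. The cause of these shifts was not tested. The replicate block is the pairing of FT and Sham pools in the tests above. Mean ratios kept their sign in every alternative. Depth limits Kcnj10 most, with at most 14 reads in the median library of replicates 1 and 3 and of FT.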

Other observations

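The CGC pair of replicate 1, left out above, entered only the alternatives with all CGC samples or all complete pairs. In it Slc7a10 was at 20.4 CPM in Sham and 12.3 CPM in FT, Slc6a11 at 2.77 and 5.89 CPM, Kcnj10 at 0.817 and 7.50 CPM and Apoe at 277 and 6028 CPM. These levels run opposite to the 3 other CGC pairs for Slc7a10, Slc6a11 and Kcnj10, and the FT library of this pair had 83.3% of its reads on the 50 most abundant transcripts.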
